A study of Solanum lycopersicum with 12 samples.

Results

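Leaves of tomato grown, treated and harvested on 1 occasion were compared with leaves of the same cultivar that had been put through the same treatments on 2 further occasions. The members are the 4 arrays numbered 1 (occasion 1), set against the 8 arrays numbered 2 or 3 (occasions 2 and 3), out of 12 arrays in all. Every array was made from RNA of the third true leaves of 3 pooled plants of cv. Ailsa Craig, which were 4 weeks old when the treatments began. On each occasion there was 1 array of each of 4 treatment groups. AS plants were sprayed with Alethea, a plant activator holding a jasmonate analogue, sodium benzoate and arginine, and were watered with 100 mM NaCl a day later. AW plants received Alethea and then water, WS plants received water and then NaCl, and WW plants received water at both steps. The treatment group was a block in the comparison of occasions, except in the one on occasion means, so that occasions were compared within AS, AW, WS and WW plants. The array value is a GCRMA log2 signal, on which a difference of 1 is a 2-fold change.

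Tomato plants of 1 cultivar are genetically alike, and their leaf transcripts are known to vary with the state of the plant. In an expanding leaf, cyclins and their kinases drive cell division. Expansins, xyloglucan endotransglycosylases, glucanases and pectin enzymes loosen the wall for growth, under the control of gibberellins, brassinosteroids and auxin. In leaves challenged by microbes or by chewing, salicylate and ethylene raise the secreted pathogenesis-related (PR) proteins, and jasmonate raises protease inhibitors and other anti-feeding proteins. The circadian clock sets the daily course of many other leaf transcripts.

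Of the 10209 probe sets on the array, 7768 had a mean above 3.2 on either side, and 7721 were tested after 47 Affymetrix control probe sets were set aside. A probe set was called at a limma Benjamini-Hochberg adjusted p under 0.05. Occasion 1 differed from occasions 2 and 3 in 3628 probe sets, 47 percent of those tested. Of these, 1938 were higher in occasion 1 (25.1 percent) and 1690 were lower (21.9 percent), and 4166 had an unadjusted p under 0.05. Changes over 2-fold were called in 582 probe sets higher (7.54 percent) and 578 lower (7.49 percent) in occasion 1. Over 8-fold changes were found in 49 probe sets higher and 43 lower. The 4 arrays of occasion 1 all lay above the 8 others in 15.7 percent of the probe sets tested and all lay below them in 12.6 percent. The median difference over all probe sets was 0.01. Since occasion 1 is 1 growing of plants, these p-values measure the spread among arrays and not among growings. When each occasion was reduced to its mean, 1 against 2, limma called 821 probe sets, 418 higher and 403 lower in occasion 1. With occasion as a random block, which lets arrays of 1 occasion deviate together, limma called 1421 probe sets higher (18.4 percent) and 1177 lower (15.2 percent). Since occasion 1 has a term of its own there, the spread between occasions is learned from occasion 2 against occasion 3 alone. The random block is therefore no full measure of the spread among growings. The counts of each gene list in that fit follow its main counts, as those with the random block. Of the 166 probe sets chosen for naming, 60 were not called on occasion means and 18 were not called with the random block.

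Occasion 1 stood apart from each of the other occasions, and the other occasions were much closer to each other. In 1 fit with a term for each occasion, 3844 probe sets were called between occasion 1 and occasion 2 (49.8 percent) and 3592 between occasion 1 and occasion 3 (46.5 percent). Between occasion 2 and occasion 3 the count was 368 (4.77 percent), and 2014 had an unadjusted p under 0.05. It was 12 without the WW and WS arrays of occasion 2. In the same fit Alethea was called in 639 probe sets (8.28 percent) and NaCl in 5 (0.0648 percent). These contrasts share arrays and are given side by side as counts. As a median over probe sets, occasion 1 against the others took up 33.9 percent of the sum of squares over the 12 arrays, the treatment group 19.9 percent and occasion 2 against occasion 3 6.17 percent. More than 50 percent of the sum of squares went to occasion 1 in 36.2 percent of the probe sets and to the treatment group in 12.1 percent.

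**Figure D1:**
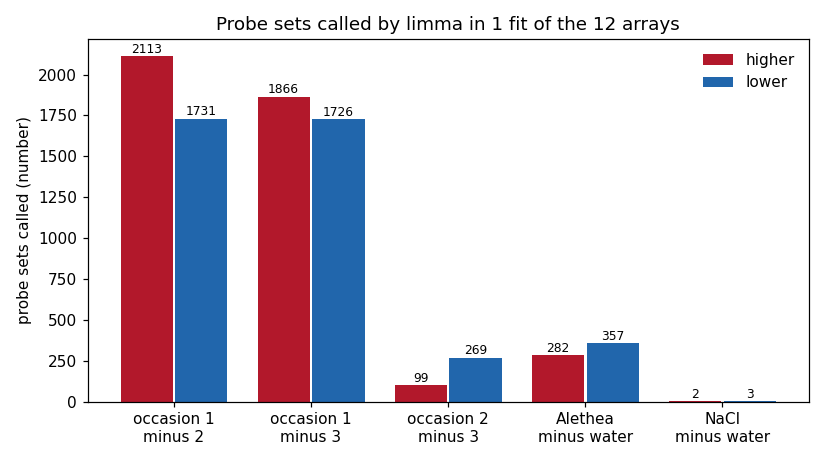
Number of probe sets called higher (red) and lower (blue) at a limma adjusted p under 0.05, for each pair of occasions and for each treatment, from 1 fit of the 12 arrays. Occasion 1 minus occasion 2 gave 2113 probe sets higher (27.4 percent) and 1731 lower (22.4 percent). Occasion 1 minus occasion 3 gave 1866 higher (24.2 percent) and 1726 lower (22.4 percent), and occasion 2 minus occasion 3 gave 99 higher (1.28 percent) and 269 lower (3.48 percent).

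The arrays themselves were alike in some technical values and not in others. The median of the probe sets tested was 8.79 to 8.84 in occasion 1 and 8.75 to 8.79 in occasions 2 and 3. The difference was 0.04 (exact two-sided permutation p = 0.0247, and 0.0494 after adjustment over 6 array values). Over all probe sets but the controls, the median differed by -0.01 (exact two-sided permutation p = 0.630). The number of these above 3.2 was 7577 to 7611 in occasion 1 and 7539 to 7565 in occasions 2 and 3 (exact two-sided permutation p = 0.0123, adjusted 0.037). The GAPDH control probe sets gave a 3′ minus 5′ difference of 0.36 to 0.61 in occasion 1 and 0.12 to 0.42 in occasions 2 and 3. That difference was larger in occasion 1 by 0.21 (exact two-sided permutation p = 0.0123, the smallest that 81 arrangements allow, and 0.037 after adjustment over 6 array values). The same measure for actin was 0.54 to 1.72 in occasion 1 and 0.54 to 1.53 in occasions 2 and 3 (exact two-sided permutation p = 0.802). All of these permutations move single arrays, although arrays of 1 occasion deviate together. Their p-values therefore measure the spread among arrays and not among growings. The hybridisation controls averaged 11.07 to 11.68 in occasion 1, and 12.45 and 12.37 in the WW and WS arrays of occasion 2 against 10.77 to 11.38 in the other 6 arrays of occasions 2 and 3. Without these WW and WS arrays, limma called 3985 probe sets between occasion 1 and the rest. Whether RNA quality or hybridisation had a part in the differences below was not tested. The growing, the harvest and the handling of the arrays of an occasion cannot be told apart, as the labels give no date or position for any of them.

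The tissue carried its leaf label in every array. All 11 probe sets of nuclear light-harvesting and photosystem proteins passed the filter, with summed linear signals of 308320 to 320176 in occasion 1 and 261604 to 305530 in occasions 2 and 3. Of 9 fruit marker probe sets, 2 passed the filter, and of 8 pollen, flower and abscission markers, 3 passed. The summed linear signal of the fruit markers was 47.1 to 64.6 in occasion 1 and 53.6 to 155.8 in occasions 2 and 3. RSI-1, first described in roots, read 8.84, 9.42, 9.04 and 9.55 in the WW, WS, AW and AS leaves of occasion 1, against 9.73, 10.54 and 11.35 as the lowest, median and highest of occasions 2 and 3. It was lower in occasion 1 by a log2 difference of -1.23 (SE 0.24, limma adjusted p = 0.00228), and the part of other tissues in the results was not tested.

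Several genes of cell division were higher in occasion 1, and others were lower or not called. CycA1, an A-type cyclin of DNA replication and entry into mitosis, read 7.19, 7.79, 7.06 and 7.99 in WW, WS, AW and AS leaves of occasion 1. In occasions 2 and 3 its lowest, median and highest values were 3.89, 4.33 and 5.12. No array of occasion 1 overlapped the others, in any treatment, and the log2 difference was 3.14 (SE 0.21, limma adjusted p = 4.01e-06). CDKB2, a plant kinase that acts around mitosis, read 9.0, 8.82, 8.56 and 9.01 in occasion 1 and 5.06, 5.82 and 6.70 (lowest, median, highest) in occasions 2 and 3. It differed by 2.95 (SE 0.24, limma adjusted p = 1.08e-05). A B-type cyclin of mitosis was higher by 2.75, CycA2 by 2.55 and CDKB1 by 1.72, and none of these 3 overlapped between the sides. The D-type cyclin CYCD3, which links growth signals to division, was higher by 0.86, and krp1, an inhibitor of the kinases, was lower by a difference of -0.85. CDKA1, the kinase present throughout the cycle, had a difference of 0.27 and was not called, nor was the replication clamp PCNA at -0.44. Of 15 cell cycle probe sets tested, 7 were called higher, 2 lower and 6 neither (7 higher and 1 lower with the random block), where 25.1 percent of all probe sets were called higher and 21.9 percent lower. The median was 0.27, beside 0.01 over all probe sets.

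Many wall-loosening enzymes were higher in occasion 1. Cel1, an endo-beta-glucanase, read 7.0, 6.63, 6.78 and 7.12 in WW, WS, AW and AS leaves of occasion 1, and 2.73, 3.51 and 4.67 as lowest, median and highest in occasions 2 and 3. All arrays of occasion 1 were above all others, by a difference of 3.30 (SE 0.25, limma adjusted p = 8.59e-06). A further endoglucanase, listed as CELLULASE, was higher by 2.51 and Cel2 by 1.30, while cel7 was lower (-1.51). In all, 5 of the 6 endoglucanase probe sets were called higher and 1 lower (4 higher and 1 lower with the random block), with a median of 0.90. A pectinesterase with an inhibitor domain read 8.94, 9.51, 8.61 and 8.36 in occasion 1 and 4.06, 4.73 and 6.16 in occasions 2 and 3, in the same order. Its difference of 4.07 (SE 0.31, limma adjusted p = 7.38e-06) was a 16.8-fold change, without overlap. Pectate lyase, which cuts pectin chains, was higher by 2.39, and 6 of 7 pectin enzyme probe sets were called higher and 1 lower (6 higher and 1 lower with the random block), with a median of 1.90. The lower one was a pectate lyase first described in styles, at -2.28. Among galactosidases, TBG7 was higher by 1.97 and TBG3 lower (-0.84), with 5 of 8 beta-galactosidase probe sets called higher and 2 lower (3 higher and 2 lower with the random block), beside 25.1 and 21.9 percent of all probe sets. The calls of TBG2 and TBG4 were lost with that block (limma adjusted p = 0.162 and 0.0794). On occasion means 1 of the 8 was called higher, beside 418 of all 7721 probe sets.

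Xyloglucan endotransglycosylases, which cut and rejoin the tethers between cellulose fibres, differed among themselves. BR1, a brassinosteroid-responsive member, read 8.19, 5.47, 6.94 and 5.80 in the WW, WS, AW and AS leaves of occasion 1, against 2.16, 2.80 and 3.18 as lowest, median and highest in occasions 2 and 3. BR1 entered through occasion 1 alone, since it averaged 6.60 there and 2.76 in occasions 2 and 3, below the filter, so these values are given without a test. XTH16 was higher on all 3 of its probe sets, by 2.89, 2.70 and 2.01. On the first of these it read 13.25, 12.78, 13.23 and 12.37 in occasion 1 and 8.90, 9.92 and 11.47 in occasions 2 and 3, with no overlap. LeXTH9 was higher by 2.22, with 1 or more arrays overlapping. XTH3 went the other way and read 4.68, 3.78, 5.28 and 5.26 in occasion 1, against 6.26, 7.42 and 8.50 in occasions 2 and 3. The difference of XTH3 was -2.64 (SE 0.21, limma adjusted p = 1.04e-05), and its arrays did not overlap either. Among the 12 probe sets of the family above the filter value on both sides, which leaves out BR1, 5 were called higher and 2 lower. With BR1 counted, 6 of 13 were called higher, 2 lower and 5 neither (6 higher and 2 lower with the random block), with a median of 0.89. The call of BR1 is no evidence of a difference. The shares of all probe sets called were 25.1 percent higher and 21.9 percent lower. Expansins, which loosen walls without cutting them, had smaller differences. They lay between -0.79 for EXP1 and 1.08 for EXPA4, and 6 of 10 probe sets were called higher and 2 lower. The 6 higher calls were also made with the random block, and both lower calls were lost (limma adjusted p = 0.0994 for EXP1 and 0.107 for EXP2).

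Proteins and glycoproteins of the wall followed. AGP-1, an arabinogalactan protein of the cell surface, read 13.24, 13.20, 13.44 and 13.23 in WW, WS, AW and AS leaves of occasion 1 and 10.16, 10.78 and 11.33 (lowest, median, highest) in occasions 2 and 3. The 4 values of occasion 1 lay close together and above all others, by 2.50 (SE 0.16, limma adjusted p = 2.73e-06). A further probe set named arabinogalactan differed by 3.29, and a proline-rich wall protein by 2.39 and 2.09 on its 2 probe sets. The fasciclin-like FLA2 differed by 2.00 on 1 probe set and 1.87 on the other. Of 9 wall glycoprotein probe sets, 6 were called higher and 2 lower (6 higher and 1 lower with the random block), with a median of 2.00. Among all probe sets 25.1 percent were called higher and 21.9 percent lower. The names of this list come in large part from the paper's lists of genes changed by its treatments, and several of its probe sets measure the same gene.

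**Figure D2:**
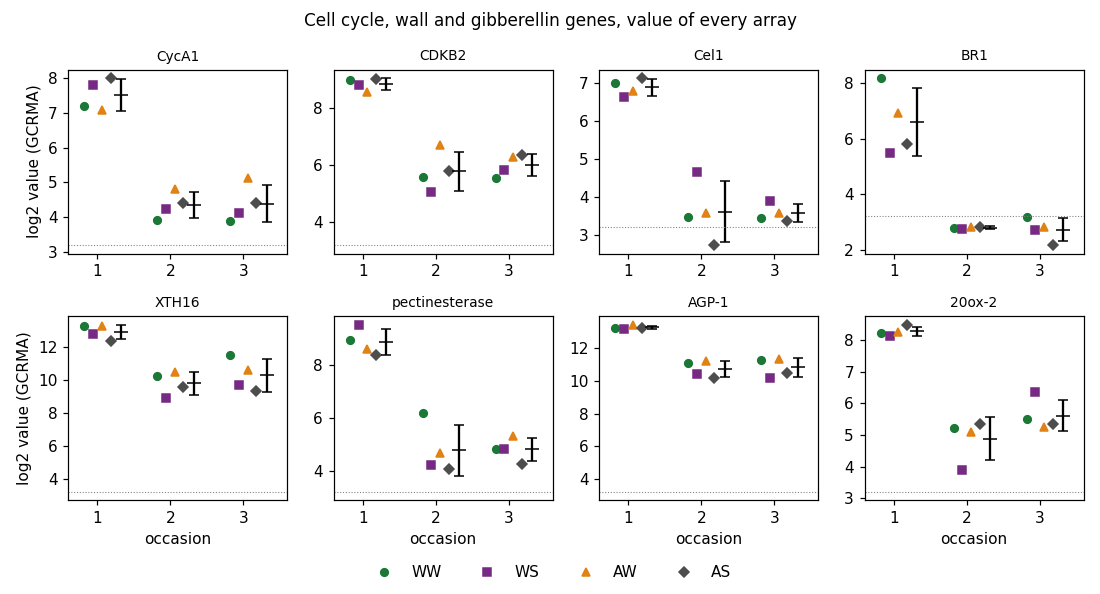
GCRMA log2 values of 8 genes of the cell cycle, wall and gibberellin synthesis in every array, by occasion. Symbols mark the treatment group, the bar beside them is the mean ± SD of the 4 arrays, and the dotted line is the filter value of 3.2. In each panel the 4 arrays of occasion 1 lie above the 8 arrays of occasions 2 and 3.

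Some genes of gibberellin and brassinosteroid synthesis were higher, and the list as a whole had a median of 0.09. The gibberellin oxidase 20ox-2, which acts late in gibberellin synthesis, read 8.24, 8.13, 8.26 and 8.49 in the WW, WS, AW and AS leaves of occasion 1, and 3.89, 5.30 and 6.35 as lowest, median and highest in occasions 2 and 3. Its arrays did not overlap, with a difference of 3.03 (SE 0.35, limma adjusted p = 9.92e-05). CYP85A1, the cytochrome P450 of a late step in brassinosteroid synthesis, was higher by 2.33 and 1.61 on its 2 probe sets. A sterol desaturase was higher by 2.37, but its mean of 2.13 in occasions 2 and 3 was under the filter value. A sterol demethylase of the same broad pathway, obtusifoliol 14alpha-demethylase, had the largest difference of all named genes in this direction that were above the filter value on both sides. It read 10.89, 10.46, 11.05 and 9.99 in occasion 1 and 3.48, 5.98 and 7.47 in occasions 2 and 3. That is a difference of 5.10 (SE 0.54, limma adjusted p = 5.30e-05), or 34.2-fold. GID1-5, named for the gibberellin receptor, was lower (-1.44) and the growth repressor GAI was higher (0.82). Of 11 gibberellin and brassinosteroid probe sets, 5 were called higher, 1 lower and 5 neither (5 higher and 1 lower with the random block), and the 5 higher include both probe sets of CYP85A1, GAI and the sterol desaturase. Auxin genes were mixed, with LeARF1, a response factor, at 1.03, the repressor IAA17 at 0.86 and an auxin-regulated protein at -1.96, and 6 of 14 called higher and 3 lower (4 higher and 2 lower with the random block), beside 25.1 and 21.9 percent of all probe sets.

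Regulators of development took both directions. DEM, needed for embryo and meristem formation, was higher by 2.25 (SE 0.11, limma adjusted p = 7.90e-07), and TCP3, of a family that limits division in leaf margins, by 2.13 (SE 0.27, limma adjusted p = 1.61e-04). TCP3 read 12.04, 12.09, 11.71 and 12.13 in occasion 1 against 8.91, 9.91 and 10.81 in occasions 2 and 3. BL2, a MYB relative of the branching gene Blind, was lower by a difference of -1.62 (SE 0.08, limma adjusted p = 8.52e-07). Of 11 such probe sets 4 were called higher and 2 lower (4 higher and 2 lower with the random block), beside 25.1 and 21.9 percent of all probe sets. The plasma membrane aquaporin LePIP1 read 12.95, 13.20, 13.02 and 12.62 in occasion 1 and 10.80, 11.14 and 11.51 in occasions 2 and 3, without overlap, a difference of 1.83 (SE 0.11, limma adjusted p = 2.51e-06). The vacuolar protease VPE5 was higher by 1.51 and 1.29 on its 2 probe sets.

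Most PR proteins were lower in occasion 1. NP24-I, an osmotin-like protein, read 5.15, 4.49, 7.03 and 6.04 in the WW, WS, AW and AS leaves of occasion 1, against 9.19, 10.18 and 10.83 as the lowest, median and highest of occasions 2 and 3. Every array of occasion 1 was below every other array, and the difference of -4.33 (SE 0.25, limma adjusted p = 1.60e-06) was 20.1-fold. P4, an acidic PR-1 protein and a common marker of the salicylate response, read 10.22, 9.34, 9.05 and 10.92 in occasion 1 and 13.03, 13.21 and 13.71 in occasions 2 and 3. It differed by -3.41 (SE 0.26, limma adjusted p = 7.19e-06). The thaumatin-like PR-5 read 9.87, 10.09, 9.33 and 10.40 in occasion 1 and 12.50, 13.16 and 13.43 in occasions 2 and 3, and differed by -3.17 (SE 0.18, limma adjusted p = 1.57e-06). Neither P4 nor PR-5 overlapped between the sides. TSI-1, a relative of the PR-10 proteins, was lower (-3.16), as were the chitin-binding PR-P2 (-2.93) and the glucanase GluB (-2.74). Chitinases, which attack fungal walls, were lower on CHI9 (-2.49), CHI14 (-2.38) and CHI3 (-1.42), while CHI17 had a difference of -0.06 and was not called. Of 20 probe sets in the list, 17 were called lower, 2 higher and 1 neither (14 lower and 2 higher with the random block), where 21.9 percent of all probe sets were called lower. The median was -1.98. The 2 higher members were the subtilisin P69A (1.31), beside its relative P69B at -1.56, and a thaumatin-like protein at 2.70. In the same fit of occasions and treatments, Alethea was called in 6 of the 20 probe sets, beside 8.28 percent of all probe sets, with a median change of 0.30.

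Many wound proteins and enzymes of arginine use were lower in occasion 1, and none of the probe sets in either list was called higher. Both lists hold the probe sets of ARG2, so their counts overlap. ARG2, an arginase that removes arginine from the gut of feeding insects and is raised by jasmonate, read 3.85, 5.38, 5.24 and 6.39 in WW, WS, AW and AS leaves of occasion 1. In occasions 2 and 3 it read 8.01, 9.03 and 9.89 at its lowest, median and highest. The sides did not overlap, with a difference of -3.76 (SE 0.31, limma adjusted p = 1.35e-05), and the other probe set of ARG2 gave -3.20. The metallocarboxypeptidase inhibitor MCPI, which blocks a digestive protease, read 5.25, 8.02, 6.46 and 7.76 in occasion 1 and 9.12, 10.49 and 11.37 in occasions 2 and 3, a difference of -3.60 (SE 0.31, limma adjusted p = 1.76e-05). The cathepsin D inhibitor cathDInh (-2.21), threonine deaminase TD2 (-1.98), the aminopeptidase LAPA1 (-1.72) and the jasmonate transcription factor MYC2 (-0.73) were lower too. TD2 overlapped between the sides. Polyphenol oxidase F had a difference of 0.60 and the jasmonate receptor COI1 one of -0.13, and neither was called. Of 17 wound and jasmonate response probe sets 12 were called lower and 5 were not called (9 lower with the random block), beside 21.9 percent of all probe sets called lower, with a median of -1.22.

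Arginine decarboxylase, which opens a path to polyamines, was lower on all 4 probe sets named adc1, by differences of -2.34, -2.32, -2.11 and -1.77. On the first of these it read 7.96, 7.86, 8.27 and 7.42 in WW, WS, AW and AS leaves of occasion 1, against 9.80, 10.20 and 10.66 in occasions 2 and 3, without overlap. ARG1, the other arginase, was lower (-1.51), as was PDH, the proline dehydrogenase that begins proline breakdown (-0.85). Of 16 probe sets of arginine, proline and polyamine enzymes, which hold several for 1 gene, 14 were called lower and 2 neither, and 10 were lower with the random block. The calls lost there were those of PDH, PRO2, SPM1 and a probe set named ADC (limma adjusted p = 0.0966, 0.0965, 0.0849 and 0.121). The median of the 16 was -1.44, and 21.9 percent of all probe sets were called lower. Enzymes that make jasmonate itself had no common direction, since TomloxE (-2.15), opr2 (-1.32) and OPR1 (-0.79) were lower, HPL, which makes leaf aldehydes, was higher (0.54) and 4 of 8 were not called (1 higher and 3 lower with the random block). Among those not called were OPR3 at 0.01, AOC at 0.05 and loxD at 0.18.

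**Figure D3:**
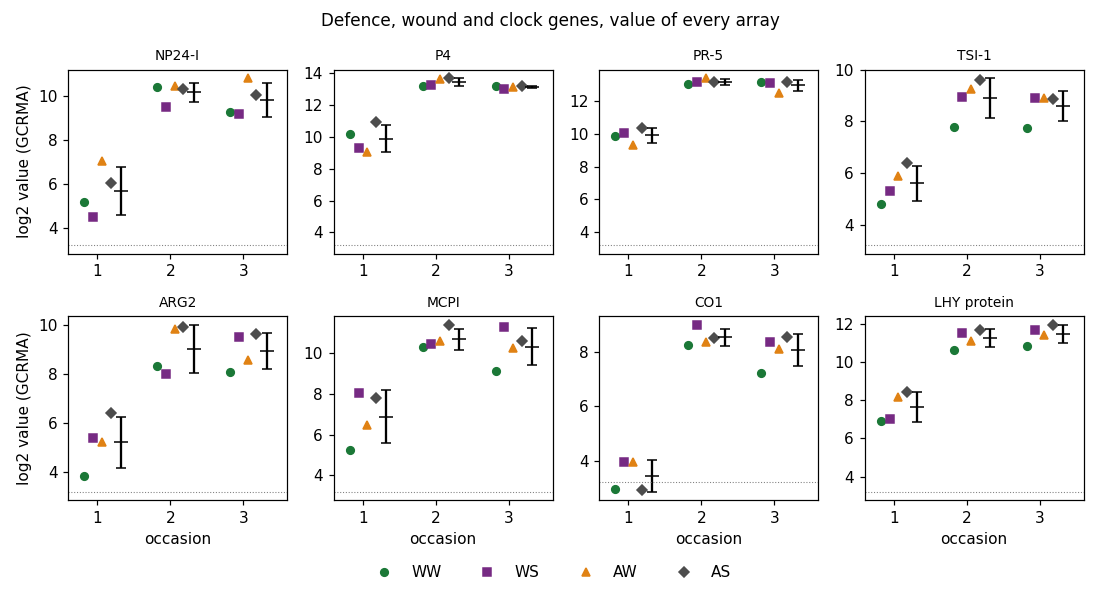
GCRMA log2 values of 6 defence and wound genes and of 2 clock-related genes in every array, by occasion, with symbols for the treatment group, the mean ± SD of the 4 arrays beside them and the filter value of 3.2 as a dotted line. In each panel the 4 arrays of occasion 1 lie below the 8 arrays of occasions 2 and 3.

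Several receptors and regulators of defence were lower. NPR1, a salicylate receptor and coactivator, read 3.90, 5.42, 3.95 and 4.60 in occasion 1 and 5.96, 6.78 and 7.43 in occasions 2 and 3 (lowest, median, highest), and differed by -2.31 (SE 0.31, limma adjusted p = 2.56e-04). Eix1, named for the receptor of a fungal xylanase, differed by -2.53, the secreted protease pip1 by -2.45 and the elicitor-activated Eli3 by -3.21, all without overlap. RBOH1, an oxidase that makes the oxidative burst, was lower (-1.11). The kinase MKK3 was higher by 1.72 (SE 0.14, limma adjusted p = 1.32e-05). Of 23 immune receptor and signalling probe sets, 11 were called lower and 3 higher (9 lower and 2 higher with the random block). Over all probe sets 21.9 percent were called lower and 25.1 percent higher, or 15.2 and 18.4 percent with that block. These shares apply to the next lists as well. Among ERF factors, PTI5 (-2.40, with a mean of 2.86 in occasion 1, under the filter value), PTI6 (-1.60) and PTI4 (-1.05), which bind the promoters of PR genes, were lower, with ERF3 (-1.94). ERF2 was higher (1.30), so that 8 of 11 ERF and DREB probe sets were called lower and 1 higher (7 lower and 1 higher with the random block), with a median of -1.0. WRKY53 (-2.77, with a mean of 2.40 in occasion 1), CaWRKY1 (-2.41), NAC1 (-2.04) and WRKYIId-4 (-1.87) were lower. In the list of WRKY, MYB and NAC factors 8 of 15 were called lower and 1 higher (8 lower and 1 higher with the random block).

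Ethylene synthesis and ethylene perception differed in their counts. Of 13 probe sets of synthesis enzymes on the array 6 passed the filter, and these 6 were called lower, beside 21.9 percent of all probe sets. Of them 3 measure 1 gene, the oxidase ACO6. ACO6 read 10.07, 10.42, 9.84 and 9.67 in the WW, WS, AW and AS leaves of occasion 1, against 11.42, 11.67 and 11.93 in occasions 2 and 3. Its arrays did not overlap, and it differed by -1.67 (SE 0.14, limma adjusted p = 1.23e-05). ACO4 (-0.68) and the synthases ACS1A (-1.25) and ACS6 (-0.38) had the remaining calls. With occasion as a random block the calls of ACS1A and ACS6 were lost (limma adjusted p = 0.162 and 0.0772), which left those of ACO6 and ACO4. On occasion means the calls of ACO4 and of 1 ACO6 probe set were lost (limma adjusted p = 0.107 and 0.0738), and the remaining ACO6 calls were kept. The call of ACS1A was also lost on leaving out any 1 of 8 arrays. Among receptors and signalling proteins, 1 of 13 probe sets was called higher, EIN2 at 0.61, and 2 lower, EIL1 and CTR4 at -0.40 each. Of all probe sets 25.1 percent were called higher and 21.9 percent lower. The receptors ETR1, ETR2, ETR3, ETR4 and ETR5 had differences between -0.18 and 0.22, none called. The calls of EIN2, EIL1 and CTR4 were lost with occasion as a random block, with limma adjusted p of 0.108, 0.116 and 0.144. The median of the 13 was -0.02.

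Antioxidant and phenylpropanoid enzymes had calls in both directions. CEVI-1, a wall peroxidase known from infected leaves, read 12.18, 11.62, 12.27 and 12.31 in occasion 1 and 13.75, 13.88 and 14.14 in occasions 2 and 3 (lowest, median, highest). It did not overlap and differed by -1.80 (SE 0.12, limma adjusted p = 2.99e-06). GST-T4 differed by -2.41, with a mean of 2.25 in occasion 1, under the filter value. The iron superoxide dismutase FESOD was higher (0.60) and the copper-zinc enzyme SODCC.1 lower (-0.62), the call of SODCC.1 being lost with occasion as a random block (limma adjusted p = 0.0512). In all, 15 of 37 antioxidant enzyme probe sets were called lower, 5 higher and 17 neither (13 lower and 4 higher with the random block). THT1-3, which makes phenolic amides deposited in walls under attack, was lower (-2.33), and ferulate-5-hydroxylase of lignin synthesis was higher (1.5). Of 10 phenylpropanoid probe sets 5 were called lower and 3 higher (3 lower and 2 higher with the random block), beside 21.9 percent lower and 25.1 percent higher over all probe sets. The calls of CHS2, CCR1 and a further tyramine transferase were lost with that block (limma adjusted p = 0.102, 0.132 and 0.122).

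Among clock and light genes, a few had large differences and the photoreceptors did not. CO1, a CONSTANS-type protein whose relatives follow the clock, read 2.93, 3.96, 3.94 and 2.91 in WW, WS, AW and AS leaves of occasion 1 and 7.24, 8.39 and 9.02 as lowest, median and highest in occasions 2 and 3. Its difference of -4.88 (SE 0.24, limma adjusted p = 7.90e-07) was 29.5-fold, with no overlap. A homologue of LHY, the MYB factor that peaks at dawn in Arabidopsis, read 6.93, 7.01, 8.19 and 8.43 in occasion 1 and 10.63, 11.47 and 11.96 in occasions 2 and 3, and differed by -3.72 (SE 0.20, limma adjusted p = 1.33e-06). The clock coupling factor ZGT was higher by 1.64, with a mean of 2.46 in occasions 2 and 3, under the filter value. In occasion 1 it read 2.60, 5.55, 3.13 and 5.12, high in the WS and AS leaves alone. The photoreceptors PHYA (0.23), CRY2 (0.17) and Cry1b (0.18) and the light-signal factor HY5 (-0.27) were not called. CRY1A was lower on 1 probe set (-0.91) and not called on the other (-0.09). Of 13 probe sets in the list 1 was called higher, 4 lower and 8 neither (1 higher and 3 lower with the random block). Over all probe sets 25.1 percent were called higher and 21.9 percent lower.

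Pigment and starch enzymes held a few large differences among many small ones. Psy1, the phytoene synthase that opens carotenoid synthesis, was lower on 1 probe set (-2.62 (SE 0.27, limma adjusted p = 4.10e-05)), but its other probe set had a difference of 0.68 and was not called. The hydroxylase CrtR-b1 of xanthophyll synthesis read 9.92, 9.38, 10.14 and 10.00 in occasion 1 and 11.49, 11.74 and 12.19 in occasions 2 and 3, and was lower without overlap (-1.90 (SE 0.17, limma adjusted p = 1.98e-05)). A putative chlorophyll b reductase, of chlorophyll breakdown, was higher, at 10.28, 9.97, 9.36 and 9.36 in occasion 1 against 6.45, 7.19 and 7.97 in occasions 2 and 3 (2.55 (SE 0.10, limma adjusted p = 3.35e-07)). POR2, of chlorophyll synthesis, was higher by 0.63. Taken over all 21 pigment enzyme probe sets, 6 were called higher and 5 lower (4 higher and 4 lower with the random block), with a median of -0.10. These 28.6 percent higher and 23.8 percent lower are near the 25.1 and 21.9 percent of all probe sets. BMY3, a beta-amylase that releases maltose from starch, was lower on all 3 of its probe sets (-2.30, -1.97 and -1.87). The invertase Wiv-1 was lower (-2.77), while the hexokinase hxk1 was higher (1.73). Sugar and starch enzymes as a list had 9 of 28 probe sets called higher and 11 lower (7 higher and 11 lower with the random block). That is 32.1 percent higher and 39.3 percent lower, beside the same shares of all probe sets.

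Nutrient transporters were lower in several cases. The ammonium transporter AMT1-2 read 9.46, 9.04, 9.68 and 9.98 in the WW, WS, AW and AS leaves of occasion 1 and 12.18, 12.81 and 13.47 as lowest, median and highest in occasions 2 and 3. The sides were far apart, with a difference of -3.29 (SE 0.13, limma adjusted p = 2.19e-07). FRO1, the ferric reductase of iron uptake, read 6.46, 6.91, 6.76 and 7.10 in occasion 1 and 8.66, 9.64 and 10.20 in occasions 2 and 3, and differed by -2.76 (SE 0.19, limma adjusted p = 3.81e-06). The phosphate transporter PT1 was lower (-1.22) with overlap, as were the metal transporter NRAMP3 (-1.07) and the sulphate transporter ST2 (-0.85). TPSI1, known from phosphate-starved tomato, was higher (0.89). Of 14 nutrient probe sets 8 were called lower and 3 higher (8 lower and 1 higher with the random block), beside 21.9 percent lower and 25.1 percent higher over all probe sets, with a median of -0.78. The higher calls of AAP1 and APS1 were lost with that block (limma adjusted p = 0.119 and 0.141).

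Other groups had few calls or small differences. Cytosolic ribosomal proteins and translation factors had 1 of 13 probe sets called higher, eIF4E1 at 0.33, and 1 lower, a putative ribosomal protein L31 at -2.07. The list had a median of -0.01, and 15.4 percent of it was called against 47 percent of all probe sets. Values of light-harvesting and photosystem proteins ran from 5.31 to 15.37 in occasion 1 and from 5.78 to 15.26 in occasions 2 and 3. The highest lay near the top of the array's range, where signals can saturate. These proteins were called higher in 4 of 11 and lower in 1, with a median of 0.13. The lower one was a ferredoxin-1 probe set, still called with occasion as a random block (limma adjusted p = 0.0310). The 4 higher calls became 2 with occasion as a random block (limma adjusted p = 0.126 for PSBP and 0.137 for PsbQ), 2 with each array centred on its median and 0 without occasion 3, where 2 were higher at an unadjusted p under 0.05. CAB5, an antenna protein, differed by 0.38 and psaD of photosystem I by 0.31. Heat shock proteins were called higher in 1 of 9, HSP17-6 at 0.35, and lower in 3. Of these HSP17-6 and a heat shock cognate 70 lost their calls with the random block (limma adjusted p = 0.142 and 0.0667), and without a treatment block all 3 lower calls were lost (limma adjusted p = 0.0630 to 0.0681). The calls of CAB5, psaD and eIF4E1 were lost without occasion 3 (limma adjusted p = 0.0789, 0.0651 and 0.0552), and that of HSP17-6 on leaving out any 1 of 10 arrays. Of 8 abscisic acid, drought and cold probe sets, 2 were called higher, 1 lower and 5 neither (37.5 percent called). NCED1, a key enzyme of abscisic acid synthesis, was higher (0.86), as was a protein phosphatase 2C (0.80), and LEA14, a protective protein, was lower (-1.0). Both higher calls were lost without occasion 2 (limma adjusted p = 0.0627 for NCED1 and 0.0694 for the phosphatase).

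**Figure D4:**
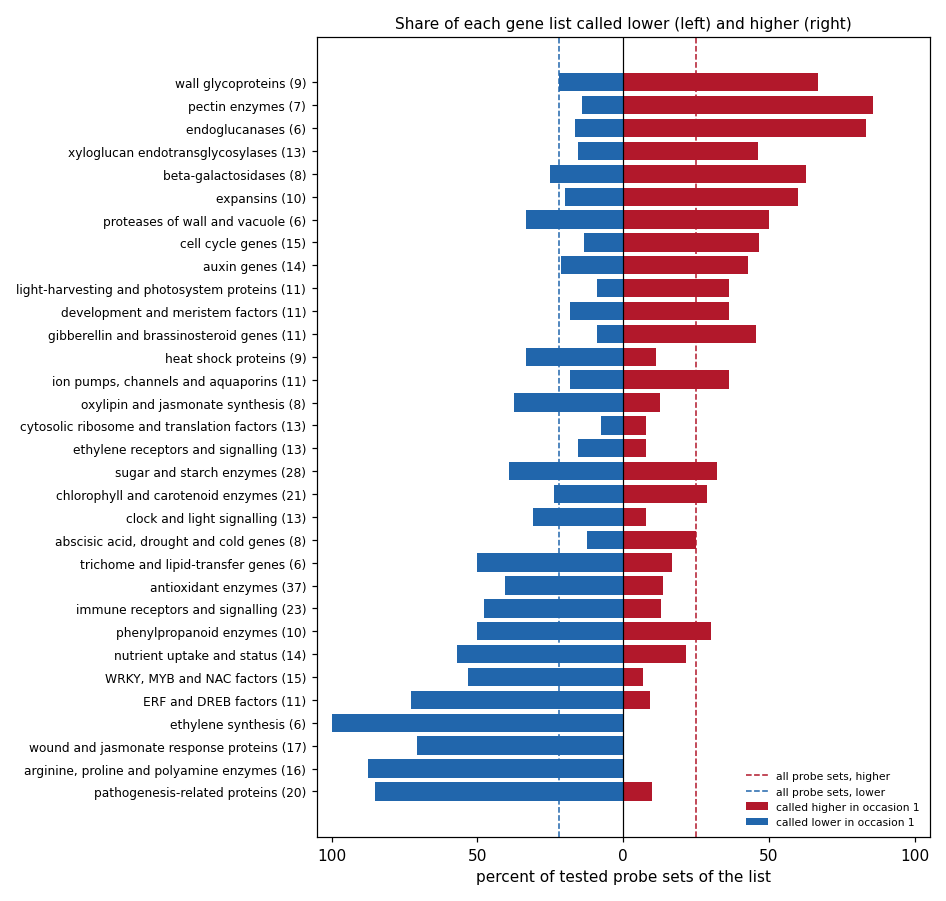
Percent of the tested probe sets of each gene list called lower (blue, to the left) and higher (red, to the right) in occasion 1, for the lists with 6 or more probe sets tested (number in parentheses), ordered by the median difference. The dashed lines mark all 7721 probe sets, 25.1 percent higher and 21.9 percent lower. Wall glycoproteins and pectin enzymes stand at the top, with 6 of 9 and 6 of 7 called higher, and PR proteins at the bottom with 17 of 20 called lower.

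Several of the largest differences fell on genes outside these lists. A lipid-transfer or seed-storage type protein was higher by 4.81, the small GTPase RHN1 of membrane traffic by 4.42, a plasma membrane polypeptide by 3.59 and a DnaJ-like co-chaperone by 3.40. An alpha-galactosidase-like protein was higher by 3.37. In the other direction were an omega-6 fatty acid desaturase (-4.94), tropinone reductase I (-4.03), the cytochrome P450 CYP92B3 (-3.89) and an acyl-CoA synthetase (-3.79). The acyl-CoA synthetase was the most even of these, with 6.27, 7.16, 6.92 and 7.14 in the WW, WS, AW and AS leaves of occasion 1 against 10.24, 10.62 and 11.11 in occasions 2 and 3. These names come mostly from best matches in other species.

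A smaller group of genes was above the filter value on 1 side alone. There were 143 probe sets above 3.2 in occasion 1 alone, 122 of them called, and 122 above it in occasions 2 and 3 alone, 64 of them called. Since a probe set entered through the side on which it was high, these counts are no evidence of a difference. The list counts given above include such members. Among probe sets above the filter value on both sides, 16 of 19 PR proteins, 6 of 9 ERF and DREB factors, 7 of 13 WRKY, MYB and NAC factors, 10 of 22 immune genes, 12 of 32 antioxidant enzymes and 7 of 13 nutrient genes were called lower. In the same way 5 of 12 xyloglucan endotransglycosylases, 4 of 7 beta-galactosidases, 4 of 10 gibberellin and brassinosteroid genes, 8 of 27 sugar and starch genes, 0 of 12 clock and light genes and 0 of 5 trichome and lipid-transfer genes were called higher. When all 7456 probe sets above the filter value on both sides were fitted alone, 1818 were called higher and 1628 lower. The 8 of 27 sugar and starch genes are near that share called higher. TKR read 6.30, 6.31, 5.91 and 6.09 in occasion 1 and 2.05, 2.63 and 3.04 in occasions 2 and 3, and a glycosyltransferase of family GT8 averaged 5.33 in occasion 1 and 2.50 in occasions 2 and 3. SSTLE1, a sesquiterpene synthase of the kind found in leaf hairs, averaged 4.37 in occasion 1 and 2.17 in occasions 2 and 3. A putative Nek8 kinase averaged 2.14 in occasion 1 and 7.35 in occasions 2 and 3, and a putative acid phosphatase, of the kind that frees phosphate, 2.61 in occasion 1 and 5.75 in occasions 2 and 3. At the limit of the filter, the nearest probe sets inside it had a higher side mean of at most 3.21 and the nearest outside it one of at least 3.19.

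Probe sets with no gene name held the largest differences of all. Les.2964.1.A1_at read 8.40, 8.75, 9.27 and 8.81 in WW, WS, AW and AS leaves of occasion 1, against 2.33, 2.48 and 3.92 as lowest, median and highest in occasions 2 and 3, a difference of 6.13. Les.2964.3.A1_at, of the same transcript cluster by its number, differed by 5.32. Les.3319.3.S1_at and Les.3319.2.S1_at were lower, by differences of -6.77 and -6.45. The first of these read 4.34, 2.73, 3.53 and 3.42 in occasion 1 and 9.34, 10.41 and 11.01 in occasions 2 and 3. In 3 of these 4 probe sets the lower side averaged under the filter value, so the size of their differences is uncertain.

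The comparison was also made with occasion 2 and with occasion 3 in turn. The PR protein list had a median of -1.93 for occasion 1 minus occasion 2, -1.90 for occasion 1 minus occasion 3 and 0.11 for occasion 2 minus occasion 3. The pectin enzymes had medians of 2.18, 1.63 and -0.16 in the same 3 contrasts. A gap between occasions 2 and 3 is part of the error against which occasion 1 was tested, so nothing is read from its small size in genes called for occasion 1. A difference of the same sign was called against both occasion 2 and occasion 3 in 2814 probe sets. With each occasion reduced to its mean, 14 of the 20 PR probe sets were still called lower and 5 of the 7 pectin enzymes higher. Also called lower were 8 of the 17 wound and jasmonate probe sets and 6 of the 16 arginine, proline and polyamine probe sets. Over all 7721 probe sets, 418 were called higher and 403 lower in that comparison. In that comparison limma called 0 of the 10 expansins, and 6 of them were higher at an unadjusted p under 0.05.

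Treatment changes were compared between occasions by the interaction of each treatment with occasion 1. For Alethea, 12 probe sets were called (0.155 percent), 2 with a higher (0.0259 percent) and 10 with a lower change (0.13 percent) in occasion 1, and 486 had an unadjusted p under 0.05. Alternative oxidase 1b, a bypass of the mitochondrial electron chain, changed by -0.02 after Alethea in occasion 1, by 3.76 in occasion 2 and by 4.09 in occasion 3 (difference -3.94). A probe set named F1-ATPase alpha subunit changed by -0.27 in occasion 1, 2.24 in occasion 2 and 2.47 in occasion 3. For ribosomal protein L2 the changes were -0.66, 2.30 and 2.56 in that order of occasions. A cyclin-like F-box protein changed by 0.11 after Alethea in occasion 1, and fell by 7.10 in occasion 2 and by 5.91 in occasion 3. It read 2.68, 2.75, 3.29 and 2.35 in WW, WS, AW and AS leaves of occasion 1, near the floor of the array, where a fall could not be seen. In 9 of the 12 the change was smaller in size in occasion 1 than in occasions 2 and 3, and in the other 3 it was larger. Of those 9, 5 averaged under the filter value in occasion 1, alternative oxidase 1b (1.88) and the F-box protein (2.77) among them, and the other 3 all averaged under it in occasions 2 and 3. For these 8 the side with the smaller change was the one near the floor, so that no direction is read from the counts. The F1-ATPase subunit (means 12.15 in occasion 1 and 12.77 in occasions 2 and 3) and ribosomal protein L2 (12.68 and 13.30) lay above it on both sides, with differences of -2.63 (limma adjusted p = 0.0417) and -3.08 (limma adjusted p = 0.0326). For NaCl 1 probe set was called (0.013 percent), and 224 had an unadjusted p under 0.05. The called one was ZGT, whose values after NaCl were higher by 2.47 in occasion 1, against 0.09 for occasion 2 and 0.17 for occasion 3. ZGT passed the filter through occasion 1 alone, with a mean of 2.46 in occasions 2 and 3, so its change there is bounded by the floor. In occasion 1 each such change rests on 2 arrays against 2. For Alethea, limma called 0 probe sets without occasion 2 (535 at an unadjusted p under 0.05) and 128 without occasion 3. For NaCl it called 0 without occasion 2 (291 unadjusted) and 0 without occasion 3 (529 unadjusted).

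**Figure D5:**
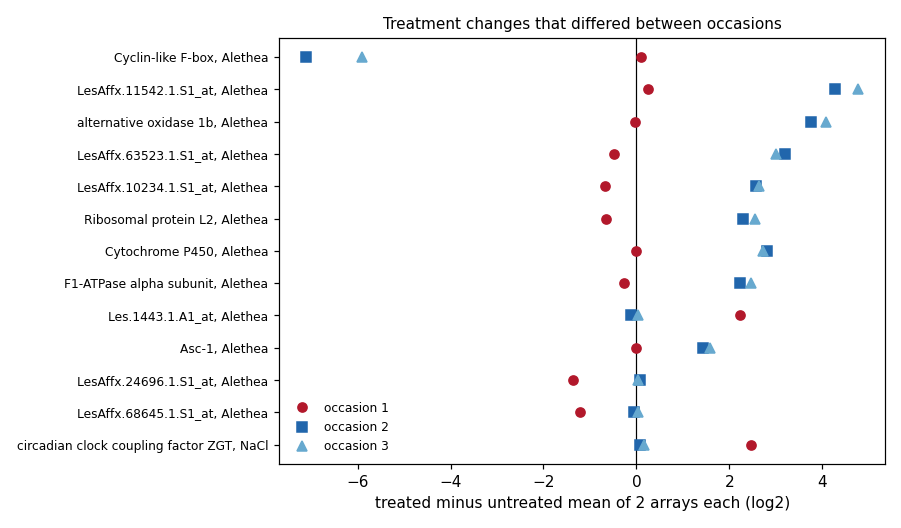
Log2 change after Alethea (12 probe sets) or NaCl (1 probe set) in each occasion, as the mean of 2 treated arrays minus the mean of 2 untreated arrays, for the probe sets called in the interaction of treatment and occasion 1. The probe sets were chosen by that interaction, so the distance of occasion 1 is fixed by the choice. The F-box protein has the widest gap between occasions 2 and 3, at -7.10 and -5.91.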

How the data were processed

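Leaf RNA of 4 treatment groups was hybridised on 3 occasions to 12 Affymetrix tomato arrays. The deposited log2 values were made by the authors with GCRMA, which corrects background, normalises by quantiles between arrays and summarises probes; its version is not given in the sources used here. The single table of values was used, with no column left out. That a number marks an occasion was taken from the array titles, the study's account of 3 occasions and the values. After removal of group means, arrays of 1 number correlated at 0.46 to 0.88 over probe sets, and arrays of other numbers and groups at -0.81 to 0.64.

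Probe sets with a mean above 3.2 in occasion 1 or in occasions 2 and 3 were kept and control probe sets left out. Each was fitted in limma 3.58.1 under R 4.3.3 with the treatment group as a block (7 residual degrees of freedom), moderated by eBayes and adjusted by Benjamini-Hochberg over 7721 probe sets; the scripts were tested on simulated data. Pairs of occasions and interactions with treatments came from fits with terms for them. Values of whole arrays were tested by exact permutation within treatment groups, with single arrays as the units. The precision is limited by the number of occasions, 1 against 2, more than by the number of arrays. Python 3.11.15, numpy 2.4.6, pandas 2.3.3 and matplotlib 3.10.9 were used for names and plots.

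Names came from the array annotation (702 probe sets), RefSeq synonyms (41) and the study's additional lists of genes changed by its treatments (263), so that named genes are not a random sample; 824 of those tested had a name. Named genes were the 12 largest called differences in each direction with 1 sign in all 8 pairs of occasions within treatments and means above 3.2 on both sides, the 5 largest above it on 1 side alone, and up to 5 called members of each of 34 gene lists, 166 probe sets in all. Other list members are named for comparison and were chosen with their values seen. The members and lists were chosen with earlier results of these data known, and list patterns were edited against the table of names. Alternatives covered the filter, the block, the occasion terms, the scale, the prior and the arrays entered. Keeping control probe sets, further settings for pairs of occasions, interactions without the WW and WS arrays of occasion 2, and counts of list members were added after seeing the data.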

Additional observations from a re-analysis of the deposited data

Results flagged for a closer look

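Single arrays stood far from the rest of their occasion in 16 of 338 groups of values examined for the named genes (4.73 percent, where chance gives about 1 in 20). In occasion 1, the AS array read 3.16 for a sterol 22-desaturase (the other 3 arrays 4.82 to 5.05), 5.38 for CTR4 (others 4.70 to 4.81) and 6.77 for a sugar transporter (others 5.47 to 5.65). The WS array of occasion 1 read 7.77 for Psy1 (others 9.14 to 9.34), 11.41 for pectate lyase (others 10.17 to 10.35), 10.39 for the chalcone synthase CHS2 (the other 3 arrays higher, the highest at 11.06) and 13.34 for VPE5 (others 12.83 to 12.86). The WW array of occasion 1 read 2.26 for a ribonuclease T2 (others 2.03 to 2.06), all below the filter value.

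In occasions 2 and 3 the AS array of occasion 3 read 2.16 for BR1 (the other 7 arrays 2.71 to 3.18) and the WW array of occasion 3 read 3.11 for the sterol 22-desaturase (others 1.69 to 2.30). The AW array of occasion 3 read 12.50 for PR-5 (others 13.04 to 13.43) and 4.83 for CCR1 of lignin synthesis (others 6.21 to 7.32). The WW array of occasion 2 read 12.50 for ACO4 (others 12.85 to 13.03) and 2.38 for the sugar transporter (others 3.55 to 4.39). The WS array of occasion 2 read 5.71 for a peroxidase precursor (others 6.82 to 7.43) and 3.10 for a K+ channel protein (others 4.22 to 5.08).

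The change after a treatment differed between occasion 1 and occasions 2 and 3 by limma's interaction test in 13 probe sets, given here as the change in occasion 1 minus that in occasions 2 and 3. For Alethea it was 6.61 for the cyclin-like F-box protein (limma adjusted p = 0.0327), -3.94 for alternative oxidase 1b, -3.08 for ribosomal protein L2, -2.78 for a cytochrome P450, -2.63 for the F1-ATPase alpha subunit and -1.50 for Asc-1, a tomato gene of resistance to a fungal toxin (limma adjusted p = 0.0476). In 6 probe sets with no name it was -4.26, -3.58, -3.28, 2.27, -1.42 and -1.21. For NaCl it was 2.34 for ZGT (limma adjusted p = 0.0312). In occasion 1 alternative oxidase 1b read 1.92, 1.86, 1.85 and 1.89 in WW, WS, AW and AS leaves, all below the filter value, so its change there is bounded by the floor of the array. The same limit holds for the cytochrome P450 at 2.74 to 2.99, for Asc-1 at 2.75 to 2.82 and for the F-box protein, which averaged 2.77 in occasion 1. ZGT averaged 4.10 in occasion 1 and 2.46 in occasions 2 and 3, so its change after NaCl is bounded in occasions 2 and 3.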

How the results depend on the processing

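The limits lie in the occasions more than in the arrays. Occasion 1 is a single growing, and with each occasion reduced to its mean limma called 821 probe sets, 418 higher and 403 lower in occasion 1, against 3628, 1938 and 1690 with arrays as samples. With occasion as a random block over the numbered replicates (consensus correlation 0.199), 2598 were called, 1421 higher and 1177 lower, and all 2598 were among the 3628. That fit takes the spread between occasions from occasion 2 against occasion 3 alone. Over the settings that left out arrays of 1 number or 1 array, the counts ran from 2919 to 3860, 1550 to 2030 higher and 1277 to 1830 lower. The other alternatives gave 3378 to 4080. Between occasion 2 and occasion 3, 12 probe sets were called without the WW and WS arrays of occasion 2, whose hybridisation controls read high, against 368 (1246 and 2014 at an unadjusted p under 0.05).

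Interactions changed most. For Alethea limma called 19 with separate terms for occasions 2 and 3, 6 without the WW and WS arrays of occasion 2, and 0 to 128 when occasion 2 or occasion 3 was left out, against 12. For NaCl it called 4 with no filter, 0 with separate terms (390 at an unadjusted p under 0.05), 0 without the WW and WS arrays of occasion 2 (315 unadjusted) and 0 to 0 when occasion 2 or 3 was left out, against 1. The cause was not tested. Of 4298 alternative values of the 166 named probe sets, 0 changed direction and 278 lost their call, 60 of these with occasion means and 18 with the random block.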

Other observations

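Ion transport held small differences beside the large one of the aquaporin LePIP1. The cation and proton exchanger NHX2 averaged 7.65 in occasion 1 and 7.62 in occasions 2 and 3 and was not called. The plasma membrane proton pumps LHA1 (0.07) and LHA2 (-0.18) were not called either. Aqp2, a further aquaporin, read 10.0, 10.16, 10.23 and 10.22 in the WW, WS, AW and AS leaves of occasion 1 and 9.15, 9.43 and 9.67 as lowest, median and highest in occasions 2 and 3. It was higher without overlap, by 0.72 (SE 0.12, limma adjusted p = 8.91e-04), and the calcium pump LCA1 by 0.47. The potassium channel LKT1 had a difference of -0.45 and SOS2, the kinase that activates sodium export in Arabidopsis, one of -0.61, both calls lost with occasion as a random block (limma adjusted p = 0.0803 and 0.0949). Of 11 such probe sets 4 were called higher, 2 lower and 5 neither, with a median of 0.07, beside 25.1 percent higher and 21.9 percent lower over all probe sets. The call of a K+ channel protein among the 4 was lost with that block too (limma adjusted p = 0.138).

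Among the lipid-transfer proteins of the trichome and lipid-transfer list, the 2 called were lower. The lipid-transfer or seed-storage type protein named earlier lies outside that list and was higher. LE16 was lower by a difference of -2.05 (SE 0.43, limma adjusted p = 0.00348), and it read 8.46, 10.01, 9.56 and 9.82 in the WW, WS, AW and AS leaves of occasion 1 against 9.52, 11.63 and 12.82 in occasions 2 and 3, with overlap. A probe set named for a plant lipid-transfer protein or allergen differed by -1.34. TSW12 (-0.11) and ltpg1 (0.18), of the same broad family, were not called. Among subtilisins outside the PR list, SBT2 had a difference of 0.86 and sbt3 one of -0.39, both calls lost with occasion as a random block (limma adjusted p = 0.0542 and 0.0857), and sbt4a was lower without overlap (-0.59).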
